A study of Homo sapiens with 12 samples.

Results

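The 8 genes described here encode facilitative sugar carriers of the SLC2A family: SLC2A1, SLC2A3, SLC2A14, SLC2A6, SLC2A8, SLC2A10, SLC2A12 and SLC2A13. They were taken by gene symbol from a table of 17303 genes, which lists 13 genes of the family, and all 8 were among the 12868 genes that passed the expression filter. Their mRNA was measured by RNA-seq in SNU638, an established gastric cancer cell line of human origin. The lines compared carried a short hairpin RNA against SKA2 (hairpin 1, 2 or 3) or a control hairpin, with 3 libraries per line and 12 in all. SKA2 encodes a subunit of the complex that ties chromosomes to spindle microtubules, and the series asked which genes it regulates. All 4 lines, the control line included, were made with lentivirus and kept as stable lines under puromycin. Nothing states how many clones a line holds or whether its libraries are separate cultures, so the errors and p-values here reflect the spread between libraries, which could be technical alone. The 8 genes were chosen with their levels in these lines already known. Their differences from the control line are therefore given as a description, with no p-value, and their calls are only counted beside those of all genes. The same choice bears on their differences between hairpin lines. The p-values printed for those differences describe these libraries and support no conclusion.

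Carriers of this family let sugars cross a membrane, in most cases down the concentration gradient, and the carriers a cell makes set where and at what sugar concentration it can take glucose up. SLC2A1 encodes the basal glucose carrier of most proliferating cells, and SLC2A3 the high-affinity glucose carrier best known from neurons. SLC2A14 is a duplicate of SLC2A3 expressed mainly in testis. SLC2A6 and SLC2A8 encode carriers held largely on internal membranes. SLC2A10 is the gene mutated in arterial tortuosity syndrome, SLC2A12 encodes a further glucose carrier, and SLC2A13 encodes a carrier that moves myo-inositol together with protons.

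Each library held between 14693300 and 16739200 counts. SKA2 was at 22.3 to 28.0 CPM (counts scaled to the size of the library) in the 9 knockdown libraries and at 117 to 126 CPM in the control libraries. All 5 epithelial markers checked (EPCAM, CDH1, KRT8, KRT18 and KRT19) were detected in every library. Their summed level in TPM (counts scaled to transcript length and to library) ranged over 3130 to 3270 in hairpin 1 libraries, 1540 to 1650 in hairpin 2 libraries, 2770 to 3080 in hairpin 3 libraries and 3250 to 3640 in control libraries. KRT8, KRT18 and KRT19 made up most of that sum. EPCAM averaged 340, 281 and 350 TPM with hairpins 1, 2 and 3, against 293 TPM in the control line. CDH1 was low, at 3.56, 0.95 and 2.72 TPM in the same lines, against 1.46 TPM. Of the fibroblast markers only COL1A1 passed 1 TPM, averaging 1.74, 2.56 and 1.31 TPM, against 2.03 TPM in the control line. The fibroblast sum was 1.18 to 2.92 TPM over all libraries. The leukocyte sum was 14.6 to 30.8 TPM, nearly all of it CD68, while PTPRC was listed at 0 in 8 libraries and reached at most 0.08 TPM. The endothelial sum reached at most 0.3 TPM. The slope of log2 counts on log2 transcript length, against the mean of all libraries, was 0.0818 to 0.107 in hairpin 1 libraries and 0.143 to 0.198 in hairpin 2 libraries. It was 0.0924, -0.121 and -0.169 in hairpin 3 libraries and -0.0478, -0.235 and -0.317 in control libraries, so that the first library of each of these lines stood apart. This slope moves with the comparisons of hairpins 1 and 2 with the control, and values fitted with it as a covariate are given beside several results.

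SLC2A3 and SLC2A14 lie side by side on the minus strand of chromosome 12, SLC2A3 at chr12:7919230-7936275 and SLC2A14 at chr12:7812512-7891148 (GRCh38, GENCODE v29), with 28081 bases between them. Over the 1488 coding bases of SLC2A3, SLC2A14 has the same base at 1440, which is 96.8%. A stretch of 120 coding bases in which the genes differ at 10 is shown because it holds 10 of the 48 positions that separate them, a denser stretch than the rest. It spans chr12:7930482-7930601 in SLC2A3 and chr12:7828706-7828825 in SLC2A14, both on the minus strand, and capitals mark the differing bases.
SLC2A3: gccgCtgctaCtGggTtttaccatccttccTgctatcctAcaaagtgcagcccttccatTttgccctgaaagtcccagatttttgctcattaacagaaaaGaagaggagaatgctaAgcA
SLC2A14: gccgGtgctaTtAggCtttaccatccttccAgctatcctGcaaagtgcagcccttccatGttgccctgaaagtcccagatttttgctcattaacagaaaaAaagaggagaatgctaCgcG
Of all windows of 50 bases in the 3915-base transcript of SLC2A3, 23.0% occur unchanged in transcripts of SLC2A14, and of windows of 100 bases 7.05% do. The deposited counts are expected counts, which divide ambiguous reads between genes. Those of SLC2A3 and SLC2A14 were not whole in 11 of 12 libraries, yet their sum was whole in all 12 (tolerance 0.02).

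SLC2A3 had the largest difference in CPM of the 8 carriers, and it was higher in each hairpin line than in the control line. It stood at 63.5, 62.6 and 64.2 CPM in hairpin 1 libraries, 413, 419 and 425 CPM in hairpin 2 libraries, and 88.9, 84.9 and 85.1 CPM in hairpin 3 libraries, against 29.5, 28.8 and 24.9 CPM in control libraries. The 4 lines did not overlap, and their order was hairpin 2, hairpin 3, hairpin 1, control. Against the control line the log2 fold changes for hairpins 1, 2 and 3 were 1.19 ± 0.07, 3.92 ± 0.07 and 1.64 ± 0.07 (SE, n = 3 libraries per line). With hairpin 2 the level was 15.1-fold higher. These values rest on 965 to 1012 counts per hairpin 1 library, 6158 to 6511 per hairpin 2 library, 1342 to 1366 per hairpin 3 library and 391 to 466 per control library. Summing the counts of SLC2A3 and SLC2A14 gave 1.20, 3.92 and 1.64. In bulk RNA, more cells with the transcript and more transcript per cell cannot be told apart.

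SLC2A3 also differed between the hairpin lines, although their SKA2 levels overlapped. The log2 difference was 2.72 ± 0.07 for hairpin 2 against hairpin 1, 0.44 ± 0.07 for hairpin 3 against hairpin 1 and -2.28 ± 0.07 for hairpin 3 against hairpin 2. The smallest of these, hairpin 3 against hairpin 1, was 0.22 ± 0.12 on the log2(TPM + 1) scale. Over all alternatives the log2 fold change over the control ranged over 1.07 to 1.495 for hairpin 1, 3.76 to 4.24 for hairpin 2 and 1.56 to 1.71 for hairpin 3. The line with the highest SLC2A3, that of hairpin 2, also had the lowest sum of epithelial markers, whose part in the difference was not tested.

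**Figure D1:**
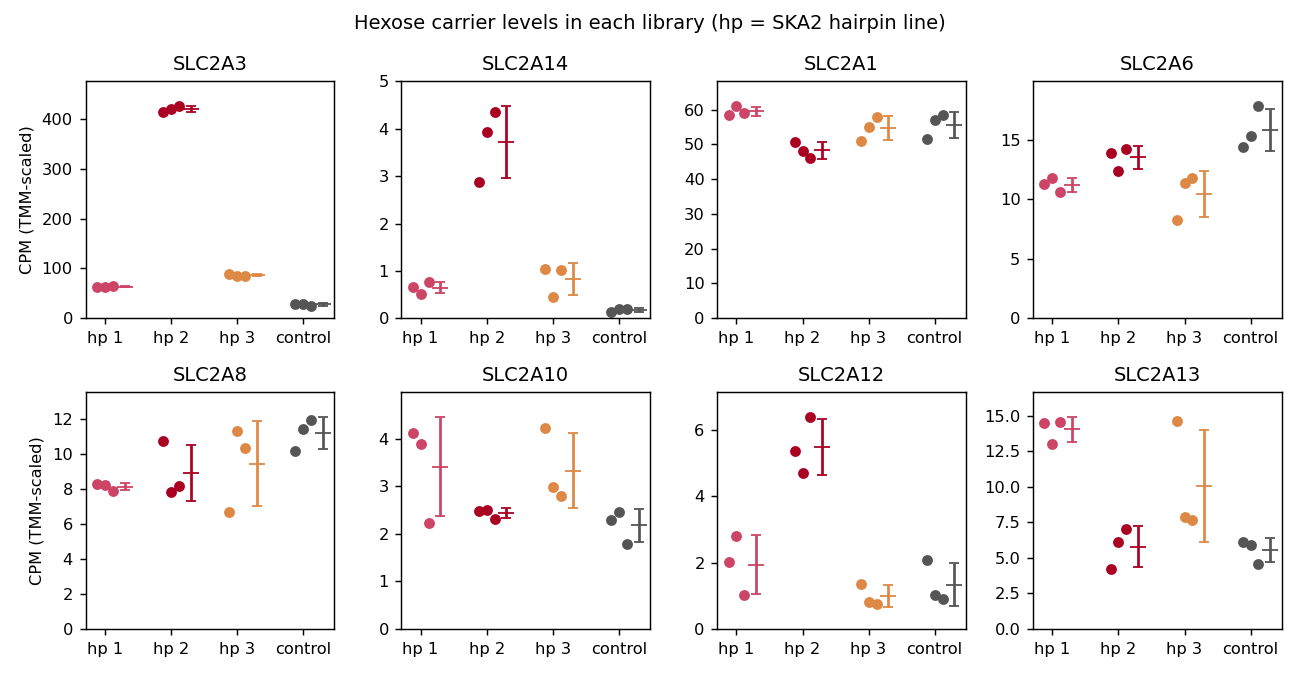
Level of each of the 8 carriers in CPM (vertical axes, each from 0) in the 3 libraries of each line (horizontal axes: hairpins 1, 2 and 3, then control). Points are libraries and the bars beside them are the mean ± SD; SLC2A3 is highest with hairpin 2, at 413 to 425 CPM, and SLC2A1 lies between 46.1 and 60.9 CPM in all 12 libraries.

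SLC2A14 followed the order of SLC2A3 at a far lower level. It stood at 0.653, 0.519 and 0.761 CPM in hairpin 1 libraries, 2.89, 3.92 and 4.35 CPM in hairpin 2 libraries, and 1.04, 0.443 and 1.01 CPM in hairpin 3 libraries, against 0.127, 0.194 and 0.191 CPM in control libraries. Every knockdown library lay above every control library, and hairpins 1 and 3 overlapped. The control values rest on 2.01 to 3.12 counts per library, so the log2 fold changes for hairpins 1, 2 and 3 of 1.87 ± 0.49, 4.39 ± 0.36 and 2.23 ± 0.46 are imprecise. That of hairpin 1 was 1.38 ± 0.73 with the length slope. Of the counts given to the pair, SLC2A14 took 0.816% to 1.13% in hairpin 1 libraries, 0.699% to 1.01% in hairpin 2 libraries, 0.526% to 1.18% in hairpin 3 libraries and 0.43% to 0.792% in control libraries. These shares overlapped among the hairpin lines, and those of hairpins 2 and 3 overlapped the control. How many of its reads came from SLC2A3 cannot be told from expected counts, so the level of SLC2A14 is uncertain. Between hairpin lines the log2 difference of SLC2A14 was 2.51 ± 0.28 for hairpin 2 against hairpin 1 and -2.15 ± 0.27 for hairpin 3 against hairpin 2.

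SLC2A1 lay within a narrow range in all 4 lines. It stood at 58.6, 60.9 and 59.04 CPM in hairpin 1 libraries, 50.8, 48.04 and 46.1 CPM in hairpin 2 libraries, and 51.1, 54.98 and 57.97 CPM in hairpin 3 libraries, against 51.4, 57.01 and 58.6 CPM in control libraries. Hairpin 3 overlapped the control, the lowest hairpin 1 library lay at the highest control library, and the hairpin 2 libraries lay below all control libraries. The log2 fold changes over the control for hairpins 1, 2 and 3 were 0.10 ± 0.07, -0.20 ± 0.07 and -0.03 ± 0.07. That of hairpin 1 was 0.46 on the log2(TPM + 1) scale and 0.31 with the length slope. For hairpin 2 the sign turned, to 0.23 on the log2(TPM + 1) scale and to 0.056 with the length slope in the fit. Hairpin 2 was lower than hairpin 1, by -0.30 ± 0.07 on the log2 scale (adjusted p = 0.00441 in edgeR's quasi-likelihood test), and this sign held in all alternatives (-0.32 to -0.24). Hairpin 3 against hairpin 1 gave -0.12 ± 0.07 (adjusted p = 0.27 in edgeR), but passed with -0.33 on the log2(TPM + 1) scale and -0.24 with the length slope. Hairpin 3 against hairpin 2 gave 0.18 ± 0.07 (adjusted p = 0.0519 in edgeR). It passed without the first or the third control library (adjusted p = 0.0313 and 0.0475 in edgeR) or the first hairpin 3 library (0.23), and was -0.099 on the log2(TPM + 1) scale.

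Levels per transcript length put the carriers in order. In control libraries SLC2A1 led with 25.7 ± 1.42 TPM (SD, n = 3), above SLC2A3 at 11.3 ± 2.29, SLC2A8 at 10.7 ± 0.115 and SLC2A6 at 10.6 ± 0.809 TPM, whose ranges overlapped. SLC2A13, SLC2A10 and SLC2A12 followed at 1.17 ± 0.29, 0.80 ± 0.197 and 0.42 ± 0.225 TPM, each overlapping its neighbour, and SLC2A14 came last at 0.093 ± 0.0115 TPM. In hairpin 1 libraries SLC2A1 at 35.7 ± 1.14 TPM lay just above SLC2A3 at 33.3 ± 0.0651 TPM, without overlap. In hairpin 2 libraries SLC2A3 led with 229 ± 11 TPM, above SLC2A1 at 30.2 ± 0.506 TPM. In hairpin 3 libraries SLC2A3 led as well, with 39.1 ± 5.02 TPM, above SLC2A1 at 28.1 ± 1.1 TPM. SLC2A8 and SLC2A6 overlapped each other in all 4 lines and stood above the remaining members.

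The ratio of SLC2A3 to SLC2A1 in TPM describes this change in make-up within each library. It was 0.949, 0.900 and 0.952 in hairpin 1 libraries, 7.12, 7.63 and 8.08 in hairpin 2 libraries, 1.52, 1.35 and 1.29 in hairpin 3 libraries, and 0.502, 0.443 and 0.373 in control libraries. No 2 lines overlapped. SLC2A3 made up 34.6%, 77.9% and 43.5% of the summed TPM of the 8 carriers in the lines of hairpins 1, 2 and 3, and 18.5% in the control line. The share of SLC2A1 was 37.02%, 10.3% and 31.5% in the lines of hairpins 1, 2 and 3, and 42.2% in the control line. The sum averaged 96.5, 294 and 89.6 TPM in these hairpin lines, and 60.8 TPM in the control line. TPM scaling itself moved the median of all genes by 0.289, 0.332 and 0.124 on the log2 scale for hairpins 1, 2 and 3 over the control, so levels set across lines in TPM include that shift.

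**Figure D2:**
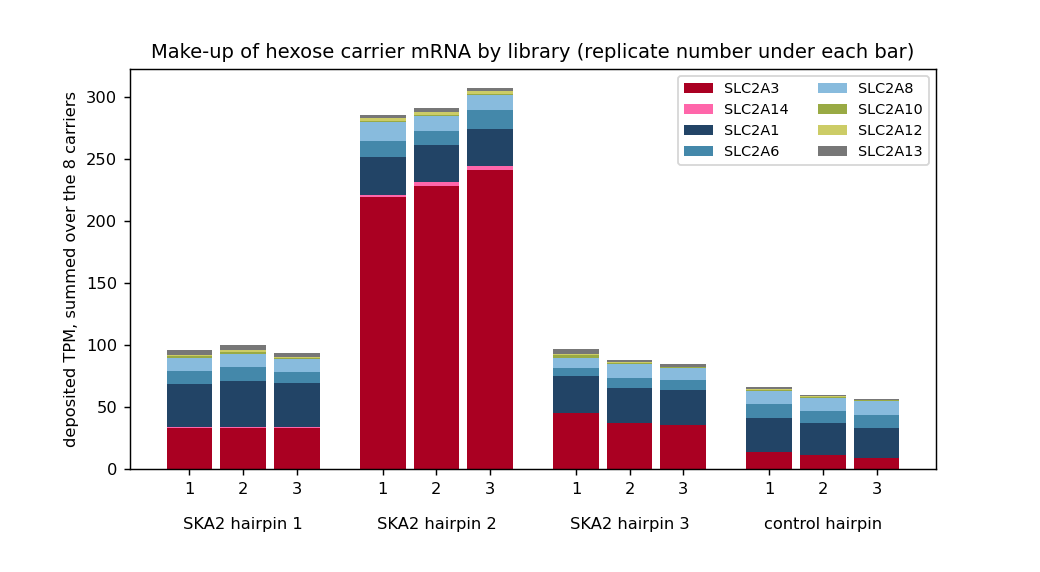
Summed deposited TPM of the 8 carriers in each library (vertical axis, from 0), split by gene, with hairpins 1, 2 and 3 and then the control line along the horizontal axis. SLC2A3 takes 77.9% of the sum on average with hairpin 2 and 18.5% in the control line.

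SLC2A6, one of the carriers of internal membranes, was lower in CPM in the hairpin lines. It stood at 11.2, 11.8 and 10.6 CPM in hairpin 1 libraries, 13.9, 12.4 and 14.2 CPM in hairpin 2 libraries, and 8.26, 11.3 and 11.8 CPM in hairpin 3 libraries, against 14.4, 15.3 and 17.8 CPM in control libraries. Every knockdown library lay below every control library. The log2 fold changes for hairpins 1, 2 and 3 were -0.50 ± 0.13, -0.23 ± 0.13 and -0.60 ± 0.13. On the log2(TPM + 1) scale that of hairpin 1 was -0.052 and that of hairpin 2 turned to 0.25, and with the length slope in the fit they were -0.085 and 0.29. SLC2A6 was lower with hairpin 3 than with hairpin 2, by -0.37 ± 0.13 (adjusted p = 0.0295 in edgeR). That call was lost without the first (-0.35) or the third (-0.33) hairpin 2 library or without the first hairpin 3 library (-0.23, adjusted p = 0.104 in edgeR, the highest over all alternatives). Hairpin 2 against hairpin 1 gave 0.27 ± 0.13 and hairpin 3 against hairpin 1 gave -0.10 ± 0.14 (adjusted p = 0.101 and 0.631 in edgeR). Both passed with the length slope in the fit, at 0.38 and -0.33. Without the first hairpin 3 library hairpin 2 against hairpin 1 passed at 0.29 (adjusted p = 0.031 in edgeR), and the sign of hairpin 3 against hairpin 1 turned to 0.061.

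SLC2A8, the other such carrier, stood at 8.30, 8.24 and 7.93 CPM in hairpin 1 libraries, 10.7, 7.85 and 8.17 CPM in hairpin 2 libraries, and 6.70, 11.3 and 10.4 CPM in hairpin 3 libraries, against 10.2, 11.4 and 11.99 CPM in control libraries. Only the hairpin 1 line lay wholly below the control libraries. The log2 fold changes for hairpins 1, 2 and 3 were -0.46 ± 0.18, -0.33 ± 0.18 and -0.24 ± 0.18. With the length slope in the fit the signs of hairpins 1 and 2 turned, to 0.083 and 0.34. No pair of hairpin lines passed the test for SLC2A8: the differences were 0.13 ± 0.18 for hairpin 2 against hairpin 1, 0.22 ± 0.18 for hairpin 3 against hairpin 1 and 0.088 ± 0.18 for hairpin 3 against hairpin 2 (adjusted p = 0.567, 0.417 and 0.68 in edgeR). Without the first hairpin 3 library, which held 6.70 CPM, hairpin 3 against hairpin 1 passed it at 0.43 (adjusted p = 0.0313 in edgeR). On the log2(TPM + 1) scale hairpin 3 against hairpin 2 passed it with the other sign, at -0.38.

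SLC2A10 stood at 4.12, 3.89 and 2.22 CPM in hairpin 1 libraries, 2.48, 2.51 and 2.31 CPM in hairpin 2 libraries, and 4.23, 2.97 and 2.78 CPM in hairpin 3 libraries, against 2.28, 2.46 and 1.79 CPM in control libraries. Only the hairpin 3 line lay wholly above the control libraries. The log2 fold changes for hairpins 1, 2 and 3 were 0.65 ± 0.25, 0.16 ± 0.26 and 0.61 ± 0.25, and with the length slope in the fit those of hairpins 1 and 2 were 0.17 and -0.44. That of hairpin 3 was 0.61 ± 0.19 with the replicate number as a block, which brought it past the threshold. The call of hairpin 1 was lost in 9 of 19 alternatives. No pair of hairpin lines passed the test for SLC2A10, with differences of -0.48 ± 0.24 for hairpin 2 against hairpin 1, -0.034 ± 0.23 for hairpin 3 against hairpin 1 and 0.45 ± 0.25 for hairpin 3 against hairpin 2 (adjusted p = 0.11, 0.926 and 0.126 in edgeR). Hairpin 2 against hairpin 1 passed it without the third hairpin 1 library (-0.72) or with the length slope (-0.61), and hairpin 3 against hairpin 2 with the length slope (0.82).

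SLC2A12 and SLC2A13 were highest in different hairpin lines, and 300 bases around their starts (250 before, 50 after) are shown for that reason, from RefSeq on GRCh38.p14. They span chr6:134052575-134052874 and chr12:40106032-40106331, both on the minus strand. Capitals mark matches on either strand to 4 motifs: the GC box GGGCGG, the CCAAT box, the E-box CACGTG and the TATA box TATAAA.
SLC2A12: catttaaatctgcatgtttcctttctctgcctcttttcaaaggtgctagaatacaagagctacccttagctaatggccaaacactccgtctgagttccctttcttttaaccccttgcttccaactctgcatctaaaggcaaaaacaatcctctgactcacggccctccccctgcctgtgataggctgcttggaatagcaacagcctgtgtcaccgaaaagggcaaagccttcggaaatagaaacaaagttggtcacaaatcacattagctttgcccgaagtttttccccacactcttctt
SLC2A13: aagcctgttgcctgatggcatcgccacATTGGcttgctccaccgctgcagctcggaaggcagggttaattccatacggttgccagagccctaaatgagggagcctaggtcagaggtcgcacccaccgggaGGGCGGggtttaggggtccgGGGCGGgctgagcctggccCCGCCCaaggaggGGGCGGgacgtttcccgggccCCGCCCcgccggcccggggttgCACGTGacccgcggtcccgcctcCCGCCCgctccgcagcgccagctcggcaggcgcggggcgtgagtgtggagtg
The SLC2A13 window holds the GC box 6 times, the CCAAT box 1 time and the E-box 1 time, and none of the 4 motifs is in the SLC2A12 window. Of 35116 RefSeq promoters of this length, 45% hold the GC box, 34.6% the CCAAT box, 11.5% the TATA box and 7.26% the E-box. Of the 7 members with an entry, 6 hold the GC box, 4 the CCAAT box, 1 the TATA box and 1 the E-box. A match describes the letters and is not evidence of a site. SLC2A3 has no entry.

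SLC2A12 was highest with hairpin 2. It stood at 2.03, 2.79 and 1.02 CPM in hairpin 1 libraries, 5.37, 4.70 and 6.39 CPM in hairpin 2 libraries, and 1.37, 0.823 and 0.759 CPM in hairpin 3 libraries, against 2.09, 1.03 and 0.893 CPM in control libraries. The hairpin 2 libraries lay above all others, and those of hairpins 1 and 3 overlapped the control. The log2 fold changes over the control for hairpins 1, 2 and 3 were 0.53 ± 0.39, 2.03 ± 0.35 and -0.45 ± 0.44. With the length slope in the fit that of hairpin 2 was 0.54, that of hairpin 1 turned to -0.63 and that of hairpin 3 was -1.004, and without the first control library hairpin 1 was at 1.002 and hairpin 3 at 0.023. SLC2A12 was higher with hairpin 2 than with hairpin 1, by 1.496 ± 0.33 (adjusted p = 0.00216 in edgeR). It was lower with hairpin 3 than with hairpin 2, by -2.48 ± 0.37 (adjusted p = 0.000115 in edgeR). Hairpin 3 against hairpin 1 gave -0.98 ± 0.42 (adjusted p = 0.138 in edgeR). Both calls held in all alternatives, at 0.82 to 1.87 and -2.78 to -1.22.

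The counts of SLC2A12 were not whole in 11 of 12 libraries and were divided with TBPL1, a gene of a TATA-binding-protein relative. The gene bodies overlap by 1736 bases at chr6:133988697-133990432, on opposite strands. TBPL1 had values over the control of -0.54 ± 0.10 for hairpin 1, -0.78 ± 0.10 for hairpin 2 and -0.16 ± 0.10 for hairpin 3 on the log2 scale (adjusted p = 0.000954, 3.46e-05 and 0.201 in edgeR). It was thus lowest with hairpin 2, where SLC2A12 was highest. Whether the division of reads between the genes changed was not tested, and no alternative summed SLC2A12 with TBPL1. The level of SLC2A12 is therefore uncertain.

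SLC2A13 was highest with hairpin 1 and in 1 library of hairpin 3. It stood at 14.5, 13.04 and 14.6 CPM in hairpin 1 libraries, 4.23, 6.11 and 7.05 CPM in hairpin 2 libraries, and 14.6, 7.91 and 7.65 CPM in hairpin 3 libraries, against 6.14, 5.88 and 4.59 CPM in control libraries. Hairpins 1 and 3 lay above the control libraries, and hairpin 2 overlapped them. The log2 fold changes for hairpins 1, 2 and 3 were 1.34 ± 0.25, 0.067 ± 0.27 and 0.86 ± 0.25. With the length slope in the fit those of hairpins 1 and 2 were 0.504 and -0.99, and without the first hairpin 3 library that of hairpin 3 was 0.49. SLC2A13 was lower with hairpin 2 than with hairpin 1, by -1.27 ± 0.25 (adjusted p = 0.000938 in edgeR), a call lost on the log2(TPM + 1) scale (-0.48, adjusted p = 0.0659 in limma).

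Hairpin 3 against hairpin 2 gave 0.79 ± 0.25 for SLC2A13 (adjusted p = 0.0163 in edgeR). This call was lost without the first hairpin 3 library (0.42) or the first hairpin 2 library (0.60), and its sign turned on the log2(TPM + 1) scale (-0.080). Hairpin 3 against hairpin 1 gave -0.48 ± 0.23 (adjusted p = 0.183 in edgeR), and -0.84 without the first hairpin 3 library (adjusted p = 0.00519 in edgeR). The length behind the deposited FPKM of SLC2A13 was 0.501, 0.595 and 0.880 of the control mean in the 3 hairpin 2 libraries, and 0.926 to 0.996 in those of hairpins 1 and 3. With hairpin 2 over the control it gave 0.70 on the log2(TPM + 1) scale, against 0.067 in counts.

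**Figure D3:**
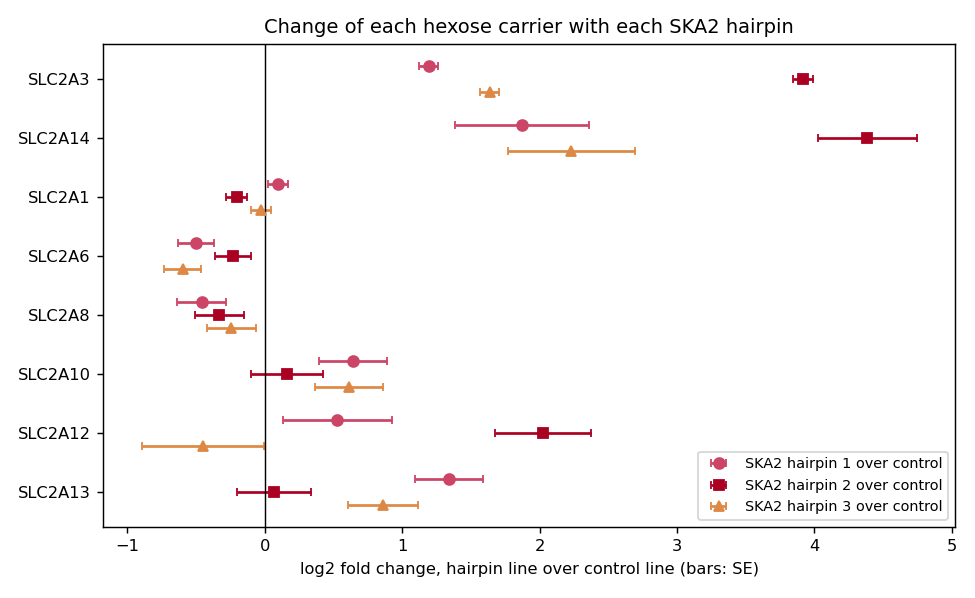
log2 fold change of each carrier with hairpins 1, 2 and 3 over the control line (horizontal axis), with bars of 1 SE and the genes down the vertical axis. SLC2A3 with hairpin 2 is at 3.92, SLC2A12 with hairpin 2 at 2.03 and SLC2A13 with hairpin 1 at 1.34.

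At an adjusted p under 0.05 in edgeR, 4 of the 8 carriers were called higher and 2 lower with hairpin 1, where 31.5% of all tested genes were called higher and 31.5% lower. With hairpin 2, 3 were called higher and 1 lower (36.6% and 37.8% of all genes), and with hairpin 3, 3 higher and 1 lower (23.6% and 24%). In the mean of the hairpins 3 were called higher and 2 lower (33.7% and 35.8%). The members were chosen on these values, so nothing is read from these counts. Their median log2 fold changes for hairpins 1, 2 and 3 were 0.59, 0.11 and 0.29, beside 0.0059, -0.017 and 0.0086 for all tested genes. Between hairpin lines, 5 of the 8 were called for hairpin 2 against hairpin 1 (57.6% of all genes), 1 for hairpin 3 against hairpin 1 (9.45%) and 5 for hairpin 3 against hairpin 2 (65.3%), shares near the background.

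Other genes that handle sugars were followed as lists, with edgeR's test across all genes. The SE of the mean of the hairpins leaves out the spread between hairpins. The genes named from a list are up to 4 with the smallest adjusted p in that mean. Their p-values therefore carry that choice and add no support. Of 65 such genes tested, 18 rose and 32 fell in that mean, where 33.7% of all tested genes rose and 35.8% fell. On the log2(TPM + 1) scale 29 rose and 17 fell, where 52% of all genes rose and 18% fell and the median of all genes moved by 0.254, so the balance of the lists depends on the scaling. The sugar kinases, which trap sugars by phosphorylation, had a median below 0 under both. Of 7 tested, 0 rose and 5 fell (median log2 fold change -0.73), and on the log2(TPM + 1) scale 0 rose and 4 fell (median -0.38). With hairpins 1, 2 and 3, 4, 6 and 4 of them fell, where 31.5%, 37.8% and 24% of all genes did, and with hairpin 1 the median of -0.31 turned to 0.0595 on the log2(TPM + 1) scale.

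HK1, the ubiquitous hexokinase gene, fell to 156, 87.1 and 128 CPM with hairpins 1, 2 and 3, against 205 CPM in the control line (mean log2 fold change -0.77 ± 0.04). In TPM it averaged 87.7, 50.9 and 61.6, against 88.6 in the control line, so its fall with hairpin 1 depends on the scale. HKDC1, a hexokinase relative, fell by 2.77 ± 0.13 in the mean. KHK, the ketohexokinase gene, fell by 0.95 ± 0.12. GALK1, the galactokinase gene, fell by 0.73 ± 0.15 in the mean, at -1.995 with hairpin 2 and 0.0095 with hairpin 1. The call of GALK1 was lost once the length slope entered as a covariate (-0.14) and with the 9 knockdown libraries as 1 group (-0.502).

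Of 20 tested genes of glycolysis and lactate, 4 rose and 13 fell in the mean (median -0.22), but 8 rose and 7 fell on the log2(TPM + 1) scale (median 0.089). With hairpin 2, 2 rose and 16 fell (median -0.64), and 5 rose and 9 fell on the log2(TPM + 1) scale (median -0.14). Of all genes, 33.7% rose and 35.8% fell in the mean, and 52% and 18% did on the log2(TPM + 1) scale. With hairpin 2, 36.6% of all genes rose and 37.8% fell, and on the log2(TPM + 1) scale 53% rose and 20.9% fell. PFKP, a phosphofructokinase gene, fell by 0.88 ± 0.06, ENO1, the enolase gene, by 0.75 ± 0.09 and PKM, the pyruvate kinase gene, by 0.57 ± 0.08 in the mean. PFKFB3, which makes an activator of phosphofructokinase, rose by 0.56 ± 0.06. The line of hairpin 2 also had the lowest epithelial marker sum, whose part in these values was not tested.

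Of the other 3 tested family members, SLC2A11 fell by 0.19 ± 0.07 (adjusted p = 0.0255 in edgeR), a sign that turned on the log2(TPM + 1) scale (0.12). Its values were -0.023, -0.61 and 0.065 for hairpins 1, 2 and 3, and only hairpin 2 passed the test (adjusted p = 5.08e-05 in edgeR). The call in the mean was lost when any 1 control library was left out (adjusted p = 0.056 to 0.0672 in edgeR), with the length slope (-0.087) and with the 9 knockdown libraries as 1 group (-0.16). SLC2A4, the insulin-regulated carrier gene, gave -0.20 ± 0.24 and SLC2A9, a urate carrier gene, 0.83 ± 0.35 (adjusted p = 0.457 and 0.056 in edgeR). Among 10 other sugar carriers, 3 rose and 3 fell (median 0.28), where 33.7% and 35.8% of all genes did. On the log2(TPM + 1) scale 7 rose and 2 fell, where 52% and 18% of all genes did. SLC5A3, a sodium-coupled myo-inositol carrier gene, rose by 1.37 ± 0.25 in the mean and by 2.51 ± 0.29 with hairpin 1, where it averaged 152 CPM against 26.8 CPM in the control line. SLC5A3 gave 0.40 ± 0.29 with hairpin 2 (adjusted p = 0.233 in edgeR). SLC37A1, a carrier gene of the same small family as SLC37A4, rose by 0.61 ± 0.09 in the mean, at 0.15, 1.65 and 0.017 for hairpins 1, 2 and 3, of which only hairpin 2 passed the test (adjusted p = 7.38e-08 in edgeR). SLC37A4, the glucose 6-phosphate carrier gene of the endoplasmic reticulum, fell by 0.77 ± 0.07, at -1.72 with hairpin 2 and -0.19 with hairpin 3 (adjusted p = 0.103 in edgeR), and SLC45A1 by 1.095 ± 0.12. With the 9 knockdown libraries as 1 group, the calls of SLC37A1 (0.81) and SLC37A4 (-0.63) were lost.

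Of 16 genes of glucose sensing and carrier turnover, 7 rose and 8 fell (median -0.0091), and 8 rose and 2 fell on the log2(TPM + 1) scale (median 0.26). Of all tested genes 33.7% rose and 35.8% fell in the mean, and 52% and 18% did on the log2(TPM + 1) scale. MLXIPL, a glucose-responsive transcription factor gene, fell by 2.30 ± 0.14 in the mean. RAB7A, a gene of late endosomes, fell by 0.32 ± 0.05 in the mean, which was 0.00074 on the log2(TPM + 1) scale. It fell with hairpins 1 and 3 (-0.47 and -0.65) and gave 0.15 with hairpin 2 (adjusted p = 0.0569 in edgeR), and with the 9 knockdown libraries as 1 group its call was lost (-0.28). TBC1D4, a gene of insulin-stimulated carrier traffic, rose by 1.80 ± 0.17, and SNX27, a gene that returns carriers to the cell surface, by 0.56 ± 0.07. Of 9 tested hypoxia target genes, 4 rose and 2 fell (median 0.25). On the log2(TPM + 1) scale 5 rose and 2 fell (median 0.48), and with the length slope in the fit 3 rose and 3 fell (median 0.44). With that slope 3026 of all 12868 tested genes rose and 3453 fell. VEGFA, an angiogenic growth factor gene, fell by 1.41 ± 0.07 and NDRG1 by 1.27 ± 0.04, whereas EGLN3, an oxygen-sensing hydroxylase gene, rose by 1.67 ± 0.17 and P4HA1, a collagen prolyl hydroxylase gene, by 0.90 ± 0.08.

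**Figure D4:**
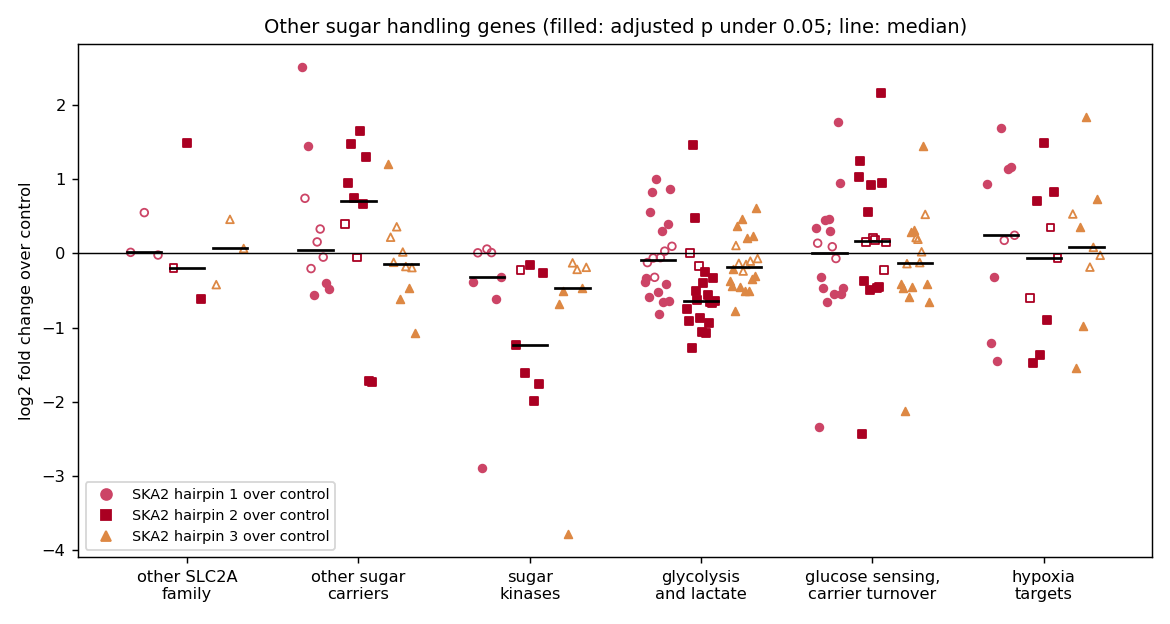
log2 fold change over the control line (vertical axis) of each tested gene of 6 lists of sugar handling genes with hairpins 1, 2 and 3. Filled points have an adjusted p under 0.05 in edgeR and short lines are medians; the sugar kinases have a median of -1.23 with hairpin 2.

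The genes most like SLC2A3 over the 12 libraries were found by Pearson's r of log2 CPM among 12126 tested genes with a mean of 1 CPM or more. They were ATP6V1B2 (r = 0.997), BMF (r = 0.995), PPP2CB (r = 0.995) and IP6K1 (r = 0.993). ATP6V1B2, a subunit gene of the proton pump of lysosomes, averaged 143, 239 and 158 CPM with hairpins 1, 2 and 3, against 118 CPM in the control line. BMF, a pro-apoptotic gene, averaged 10.6, 133 and 15.6 CPM in the same lines, against 2.21 CPM. PPP2CB, a phosphatase subunit gene, averaged 102, 143 and 109.8 CPM, against 87.05 CPM, and IP6K1, an inositol phosphate kinase gene, 103, 193 and 105 CPM, against 68.6 CPM.

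The genes most like SLC2A1 were HVCN1 (r = 0.951), BTBD2 (r = 0.941), DCPS (r = 0.932) and SLC16A3 (r = 0.932). HVCN1 lay near the floor of 1 CPM, at 1.72, 0.725 and 1.30 CPM with hairpins 1, 2 and 3, against 1.66 CPM in the control line. SLC16A3, a lactate exporter gene, averaged 149.9, 89.7 and 134 CPM with hairpins 1, 2 and 3, against 140.3 CPM in the control line. The 12 libraries come from 4 lines, so a high r mostly says that 2 genes share the order of the lines, and no p is given. Among the members, r was 0.973 for SLC2A3 with SLC2A14, which share reads, and -0.712 for SLC2A3 with SLC2A1. SLC2A1 averaged 48.3 CPM with hairpin 2 against 55.7 CPM in the control line, but 30.2 TPM against 25.7 TPM. Both r values are for CPM, and none was computed in TPM.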

How the data were processed

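Per the labels' protocols, polyadenylated RNA was fragmented, primed with random hexamers and sequenced on the BGISEQ-500. No strand-marking step is named there, and strandedness was not tested. Whether reads of genes that overlap on opposite strands could be separated is therefore not known. Per the submitters' processing notes the tools were HISAT, Bowtie2, RSEM and DESeq2 and the build GRCh38.p13, without roles or versions. The authors deposited expected counts, FPKM and TPM per gene and library, per the file headers, and 15 columns of group averages were not used. Expected counts were rounded and tested with edgeR 4.0.16 (R 4.3.3) in 1 quasi-likelihood model over all 12 libraries, after its expression filter and TMM scaling, two-sided, with Benjamini-Hochberg adjustment over 12868 genes. SE is the log2 change divided by the square root of F, and can be too small at few counts. The members, the gene lists and the rule that picked the named genes were chosen with earlier results of these data known. The rule took all members, SKA2, up to 4 genes per list with the smallest adjusted p in the mean of the hairpins, and the 4 genes most like SLC2A3 and SLC2A1; markers check the cell type. Same-numbered libraries of hairpin 3 and the control deviated together from their group means (r = 0.728, 0.17 and 0.6). Every other pair of lines had a same-numbered r of 0.1 or less. Differently numbered libraries deviated together as well, with r = 0.391 for the third control and second hairpin 3 libraries. Over all pairs of lines, r passed 0.1 in 3 of 18 same-numbered and 7 of 36 other pairs. Whether libraries were paired was not tested, and the main model held no term for the replicate number. Alternatives were DESeq2 1.42.0 and its size factors, no filter, limma 3.58.1 on log2(TPM + 1), the length slope as a covariate, a replicate block, SLC2A3 and SLC2A14 summed, the 9 knockdown libraries as 1 group and each library left out.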

Additional observations from a re-analysis of the deposited data

Results flagged for a closer look

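The effects of 2 hairpins differed by edgeR's test of the difference (adjusted p under 0.05 over all tested genes) in the cases given here. For SLC2A3 the log2 difference was 2.72 for hairpin 2 against hairpin 1, 0.44 for hairpin 3 against hairpin 1 and -2.28 for hairpin 3 against hairpin 2. For SLC2A14 it was 2.51 for hairpin 2 against hairpin 1 and -2.15 for hairpin 3 against hairpin 2. SLC2A1 gave -0.30 for hairpin 2 against hairpin 1, and SLC2A6 -0.37 for hairpin 3 against hairpin 2. SLC2A12 gave 1.496 for hairpin 2 against hairpin 1 and -2.48 for hairpin 3 against hairpin 2. SLC2A13 gave -1.27 for hairpin 2 against hairpin 1 and 0.79 for hairpin 3 against hairpin 2. SLC2A3 and SLC2A14 share reads and were chosen for their pattern over these lines. The other members were also chosen with their levels in these lines known, so all of these cases are a description.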

How the results depend on the processing

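With the length slope as a covariate, called members numbered 2 in the mean of the hairpins (5 as reported), 3 with hairpin 1 (6) and 3 for hairpin 3 against hairpin 1 (1), and called other sugar handling genes 33 (50). With the 9 knockdown libraries as 1 group these were 3 and 27 in the mean. Leaving out 1 library gave 1 to 3 called members for hairpin 3 against hairpin 1 (3 without the first hairpin 3 library) and 3 to 6 for hairpin 3 against hairpin 2 (5 as reported, 3 without the first hairpin 2 library). It gave 4 to 6 in the mean and with hairpin 1, 3 to 5 with hairpins 2 and 3, 5 to 6 for hairpin 2 against hairpin 1, and 42 to 53 other sugar handling genes. On the log2(TPM + 1) scale the sign turned for SLC2A1 in the mean (0.27), with hairpins 2 (0.23) and 3 (0.13) and for hairpin 3 against hairpin 2 (-0.099), for SLC2A6 with hairpin 2 (0.25), for SLC2A12 with hairpin 3 (0.057), for SLC2A8 in the mean (0.021), with hairpin 2 (0.24), for hairpin 3 against hairpin 1 (-0.086) and against hairpin 2 (-0.38), for SLC2A13 for hairpin 3 against hairpin 2 (-0.080), and in the mean for SLC2A4 (0.043), SLC2A11 (0.12) and RAB7A (0.00074). With the length slope it turned for SLC2A1 in the mean (0.14) and with hairpins 2 (0.056) and 3 (0.068), for SLC2A6 with hairpin 2 (0.29), for SLC2A8 in the mean (0.14), with hairpins 1 (0.083) and 2 (0.34), for hairpin 3 against hairpin 1 (-0.091) and against hairpin 2 (-0.35), for SLC2A10 with hairpin 2 (-0.44) and for hairpin 3 against hairpin 1 (0.22), for SLC2A12 in the mean (-0.36) and with hairpin 1 (-0.63), for SLC2A13 with hairpin 2 (-0.99), and in the mean for SLC2A13 (-0.013) and SLC2A9 (-0.020). With 1 library left out, values ranged over both signs for SLC2A6 (-0.19 to 0.061) and SLC2A10 (-0.27 to 0.12) for hairpin 3 against hairpin 1, and for SLC2A8 for hairpin 2 against hairpin 1 (-0.0099 to 0.23) and hairpin 3 against hairpin 2 (-0.060 to 0.29). They did so too against the control for SLC2A1 and SLC2A12 with hairpin 3 and SLC2A13 with hairpin 2, reaching 0.020, 0.023 and -0.099. The cause was not tested. The replicate block gave 5 called members in the mean, 5 with hairpin 1 and 5 with hairpin 3 (4 as reported), and 52 other sugar handling genes. Under it the calls of SLC2A8 in the mean (-0.34) and with hairpin 1 (-0.46) were lost and those of SLC2A10 in the mean (0.47) and with hairpin 3 (0.61) gained. Hairpin 3 against control was the comparison in which same-numbered libraries deviated together, and there the block changed no other member's call. Over all pairs of lines, libraries of the same number correlated from -0.247 to 0.728 and those of other numbers from -0.667 to 0.391. Of the 12 libraries, 5 correlated best with their own number. Over all genes, 4926 were called in the mean with 1 knockdown group and 6479 with the length slope (8947 as reported). With hairpin 1 and the length slope 5335 were called (8114). Hairpin 3 against hairpin 1 (1216) had 1971 with DESeq2, 3518 with the length slope and 239 to 5267 with 1 library left out. Leaving out 1 library gave 7501 to 9427 in the mean and 6734 to 8916 with hairpin 1. With hairpins 2 and 3 it gave 8897 to 10030 (9574) and 4645 to 7412 (6122). For hairpin 2 against hairpin 1 it gave 6565 to 8244 (7413), and for hairpin 3 against hairpin 2 7441 to 9089 (8400). The replicate block gave 8997 in the mean, 8204 with hairpin 1 and 6301 with hairpin 3. In the mean, 6696 genes rose and 2321 fell on the log2(TPM + 1) scale (4339 and 4608 as reported). Few counts limit SLC2A14 most, with 2.01 to 3.12 per control library.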

Other observations

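TXNIP and ARRDC4, arrestin family genes whose products lower glucose uptake, were chosen here after their values were seen, from the list of glucose sensing and carrier turnover. TXNIP averaged 66.4, 107 and 39.3 CPM with hairpins 1, 2 and 3, against 52.4 CPM in the control line. Its log2 fold changes were 0.34 ± 0.06, 1.03 ± 0.06 and -0.42 ± 0.06. Because of how both genes were chosen, no p-value is given for them. ARRDC4 averaged 17.8, 38.4 and 11.7 CPM, against 16.2 CPM in the control line. ARRDC4 rose by 1.24 ± 0.09 with hairpin 2 and fell by 0.47 ± 0.10 with hairpin 3, and gave 0.14 ± 0.10 with hairpin 1. Both genes, like SLC2A3, were highest with hairpin 2, but with hairpin 3 they lay below the control line while SLC2A3 lay above it.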
